A study of Mus musculus with 2 samples.

Results

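The cells described here are named Isl1-positive striatal projection neurons after the rule that picked them. They were picked from single-cell RNA counts of newborn mouse forebrain as barcodes with at least 1 UMI (a counted messenger RNA molecule) of Isl1, 2 or more UMIs of Foxp1 and Bcl11b together, and none of Lhx6, Neurod6, Mki67 and Top2a. The rule kept only barcodes with 1000 or more UMIs and under 10% mitochondrial UMIs. It found 392 cells among 40696 barcodes: 258 of 26178 kept cells in the Gmnc-/- library and 134 of 10938 kept cells in the wild-type library. These cells are called members below. Their name stands for the rule and not for a tested identity. Part of the members without Ebf1 held RNA of progenitors and glia, as given below.

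Both groups were C57BL/6J mice at postnatal day 0. The Gmnc-/- library pooled cells of 4 animals from 2 litters, and the wild-type library pooled 4 of their littermates. Lateral and dorsal cortex with the hippocampus was dissected from both hemispheres, so the striatum is not named among the dissected regions, and the number of members can depend on where the cut was made, which was not tested. There was 1 library per genotype and no mark ties a cell to an animal. No difference below therefore has a replicate check or a p-value, each compares these 2 libraries and not the genotypes, and the 95% intervals given in parentheses hold counting error and nothing else.

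Striatal projection neurons are the GABA-releasing output cells of the striatum. They form a direct pathway, which carries the dopamine receptor Drd1 and the peptides Tac1 and Pdyn, and an indirect pathway, which carries Drd2 and the peptide Penk. In the mouse embryo the LIM homeodomain factor Isl1 and the HLH factor Ebf1 act in direct pathway neurons, Six3 and Sp9 act in indirect pathway neurons, and Foxp1 and Bcl11b (Ctip2) are made in both. Gmnc (GemC1) starts the programme of multiciliated cells.

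Gmnc itself had 4 UMIs in 2 Gmnc-/- members, against 1 UMI in 1 wild-type member. Among the other kept cells it stood at 0.79 CPM (its UMIs over all UMIs of the same cells, times 1000000) in the Gmnc-/- library and 0.77 CPM in the wild-type library. The chemistry reads the 3' end and the deleted part of the gene is not given in the sources used here, so these counts check neither label. Members held a median of 3835.5 UMIs in the Gmnc-/- library and 3405 in the wild-type library, with a median mitochondrial share of 0.958% and 3.62%. The libraries shared 85 barcodes, of which 67 were kept in both and none was a member in both.

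The 3 genes that defined the members were close in level between the libraries, as a description only, since the rule chose on them. Isl1 (chr13:116298281-116309689, minus strand, mm10) stood at 596 CPM in Gmnc-/- members and 589 CPM in wild-type members. Foxp1 stood at 800 CPM in Gmnc-/- and 949 CPM in wild-type members, and Bcl11b at 910 and 1057 CPM in the same order. Of the Gmnc-/- members 106 had a single Isl1 UMI, as had 50 of the wild-type members. Cells that should lack Isl1 gave some UMIs too: 84 of 5105 Gmnc-/- and 22 of 2022 wild-type kept cells with 2 or more UMIs of the excitatory factor Neurod6 (1.65% and 1.09%), and 12 of 823 and 3 of 366 erythroid cells (1.46% and 0.82%), at median depths of 6154 and 7655.5 UMIs for the first kind and 4204 and 4528 UMIs for the second. At the edge of the rule, 35 Gmnc-/- and 17 wild-type members had exactly 2 UMIs of Foxp1 and Bcl11b together, and 22.9% and 11.8% of them had Ebf1. The 35 Gmnc-/- and 11 wild-type cells with 1 such UMI, just outside, had Ebf1 in 14.3% and 9.09%.

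Members made up 0.986% of Gmnc-/- kept cells (0.869 to 1.11) and 1.23% of wild-type kept cells (1.03 to 1.45), a ratio of 0.804 (0.650 to 0.999). After every cell was thinned to 2000 UMIs and the rule applied to the thinned counts, the shares were 0.611% and 0.837%, a ratio of 0.730 (0.548 to 0.978). Thinning left out 3252 Gmnc-/- and 1857 wild-type kept cells under that depth, among them 37 and 25 members. Thinned to 4000 UMIs, the ratio turned to 1.21 (0.832 to 1.79), from 109 Gmnc-/- and 39 wild-type cells. The median depth of members, 3835.5 and 3405 UMIs, lies below 4000. Most members were therefore left out at that depth, and the count is not one of the same cells. Set against cells that passed every other condition of the rule, members were 6.73% in the Gmnc-/- and 7.27% in the wild-type library, a ratio of 0.927 (0.749 to 1.15). The ratio was below 1 in each of these counts except the one at 4000 UMIs.

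**Figure D1:**
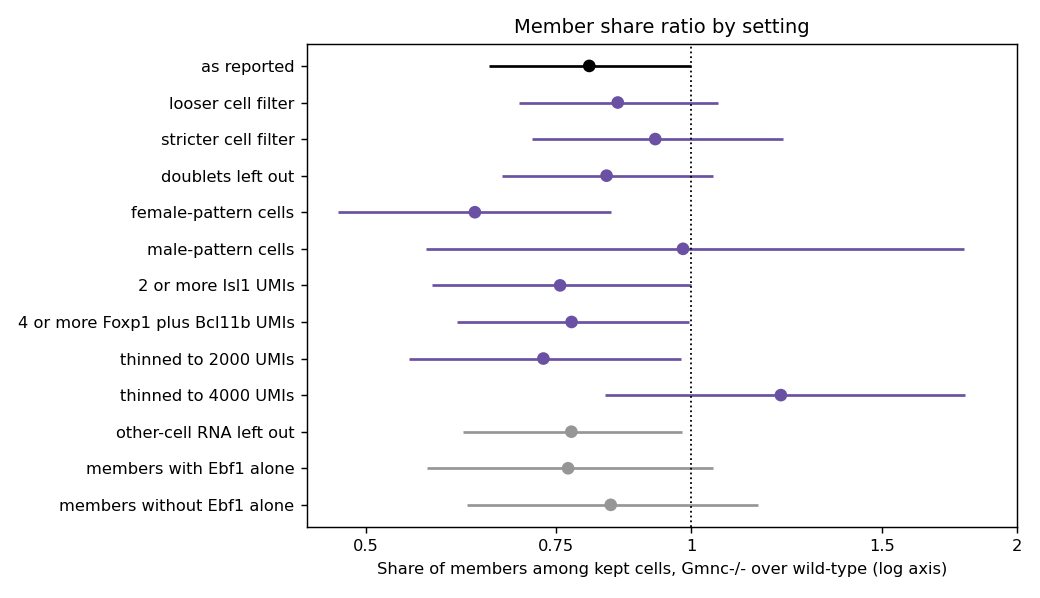
Ratio of the member share among kept cells, Gmnc-/- over wild-type, on a log axis, as reported (black), under alternatives listed at the start (purple) and under those added later (grey). Points are ratios and lines 95% intervals for counting error; the ratio is 0.804 as reported and lies on the other side of 1 when cells are thinned to 4000 UMIs.

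Ebf1, which the rule did not use, split the members into cells with none and cells with many UMIs. It was detected in 127 of 258 Gmnc-/- members (49.2%, 43.0 to 55.5) and 69 of 134 wild-type members (51.5%, 42.7 to 60.2). Where present it was abundant: the median was 16 UMIs in Gmnc-/- and 18 UMIs in wild-type members with Ebf1, and the highest cells had 104 and 117. Only 12 Gmnc-/- and 8 wild-type members had 1 or 2 Ebf1 UMIs. Thinned to 2000 UMIs per cell, 47.1% of Gmnc-/- and 47.7% of wild-type members still had Ebf1. In the same thinned counts Ebf1 was found in 3.69% of Gmnc-/- and 3.27% of wild-type Neurod6 cells and in 2.93% and 3.91% of erythroid cells. It was found in 2.41% of Gmnc-/- and 1.52% of wild-type Six3-gated cells, which have Six3 in place of Isl1 and otherwise pass the same rule. The share with Ebf1 did not follow the number of Isl1 UMIs: it was 47.2% in Gmnc-/- and 50% in wild-type members with 1 Isl1 UMI, and 56.0% and 39.1% in members with 5 or more. Members with and without Ebf1 also had like depth, with medians of 3913 and 3818 UMIs in the Gmnc-/- library and 3654 and 3315 UMIs in the wild-type library.

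**Figure D2:**
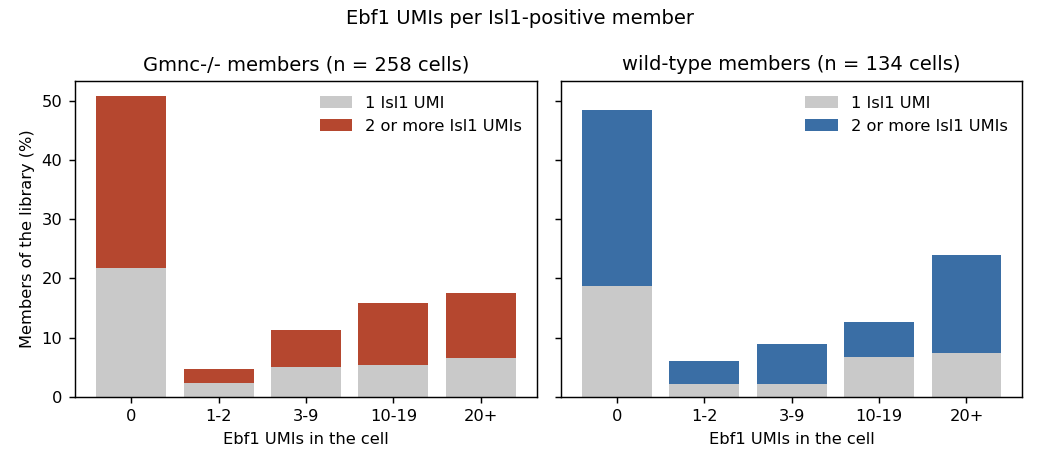
Members of each library (%) by the number of Ebf1 UMIs in the cell, Gmnc-/- on the left (258 cells) and wild-type on the right (134 cells), with cells of 1 Isl1 UMI in grey and cells of 2 or more in colour. In both libraries about as many members lack Ebf1 as carry it, and few have 1 or 2 UMIs (12 Gmnc-/- and 8 wild-type cells).

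The split by Ebf1 was chosen after its values were seen, as were the genes named for it. Of 4128 genes at 50 CPM or more on either side in each library, 97 (2.35%) were at least 2-fold higher in members with Ebf1 in both libraries, and 146 (3.54%) were at least 2-fold lower in both. The libraries share no member, and the 97 genes were 72.4% of the 134 higher in the Gmnc-/- library and 40.4% of the 240 higher in the wild-type library.

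Of 10 measured striatal identity regulators 3 were at least 2-fold higher with Ebf1 in both libraries and none was lower. Ikzf1 (Ikaros), a zinc finger factor, stood at 131 CPM in Gmnc-/- members with Ebf1 and at 0 in those without, and at 159 and 19.3 CPM in the wild-type library. Rarb, a retinoic acid receptor of the striatum, stood at 292 and 90.7 CPM in the Gmnc-/- library and 285 and 107 CPM in the wild-type library, with and without Ebf1. Its dimer partner Rxrg stood at 107 and 16.4 CPM in the Gmnc-/- library and 111 and 16.5 CPM in the wild-type library. Zfp521, a zinc finger factor, stood at 427 and 107 CPM in Gmnc-/- members and 502 and 127 CPM in wild-type members. Foxp1 stood at 1362 and 308 CPM in Gmnc-/- members and 1577 and 374 CPM in wild-type members, as a description, since it was a gene of the rule. Among members with 2 or more Isl1 UMIs the direction of Rarb turned in the wild-type library, at 209 CPM with and 230 CPM without Ebf1, beside 255 and 104 CPM in the Gmnc-/- library. Of the 3 direct pathway genes measured besides Ebf1 and Isl1, Zfp521 was higher in both libraries and Eya1 was lower in both, at 1.70 and 50.6 CPM in Gmnc-/- and 6.01 and 60.6 CPM in wild-type members with and without Ebf1, and the list's median log2 ratio was -0.65 in the Gmnc-/- and -0.64 in the wild-type library.

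Some adhesion and receptor genes were also higher with Ebf1, while Cntnap5b and Dcc, given below, were not. The cell adhesion gene Cntn5 stood at 1916 CPM in Gmnc-/- members with Ebf1 and 189 CPM in those without, and at 2123 and 68.8 CPM in wild-type members. Lingo2 stood at 1112 and 183 CPM in the Gmnc-/- library and 1415 and 190 CPM in the wild-type library. The axon guidance receptor Robo2 stood at 1891 and 562 CPM in the Gmnc-/- library and 1580 and 551 CPM in the wild-type library. Of 13 measured axon guidance genes 1 was higher and 1 lower in both libraries. Of the 13 measured glutamate and GABA receptor genes 3 were at least 2-fold higher with Ebf1 in both libraries and none was lower. Among them the AMPA receptor subunit Gria4 stood at 558 and 140 CPM in Gmnc-/- members and 619 and 173 CPM in wild-type members, and the kainate receptor subunit Grik2 at 1200 and 553 CPM and at 1526 and 485 CPM. Of 5 striatal signalling genes 4 were higher in both, among them Gnal, the olfactory-type G protein that couples Drd1 to adenylyl cyclase, at 150 and 59.5 CPM in Gmnc-/- and 186 and 66.1 CPM in wild-type members.

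Members without Ebf1 differed among themselves with the number of Isl1 UMIs, a count the rule also used, so their levels are a description. Those with 2 or more Isl1 UMIs numbered 75 in the Gmnc-/- and 40 in the wild-type library. They were high in Dcc, the netrin receptor of growing axons, at 6548 CPM in Gmnc-/- and 6966 CPM in wild-type cells, against 3885 and 4003 CPM in members with Ebf1 and as many Isl1 UMIs. The contactin-associated gene Cntnap5b stood at 944 CPM in Gmnc-/- and 1306 CPM in wild-type cells of this kind, against 229 and 249 CPM with Ebf1. The zinc finger factor Tshz2 stood at 919 and 749 CPM, against 224 and 141 CPM with Ebf1, and the POU factor Pou3f1 at 461 and 557 CPM, against 250 and 273 CPM. Foxp1 was found in 33 and 20 of them, at 180 and 359 CPM; since the rule asked for Foxp1 or Bcl11b, the cells without Foxp1 had to carry Bcl11b. Zfp503 (Nolz1), a factor of striatal precursors and neurons, stood at 208 and 320 CPM, beside 200 and 213 CPM with Ebf1. Glial RNA was present in this set too, mainly in the Gmnc-/- library: Slc1a3 stood at 503 CPM in 14 of 75 Gmnc-/- cells and 115 CPM in 2 of 40 wild-type cells, and Fabp7 at 1031 and 198 CPM. In the 61 Gmnc-/- and 38 wild-type cells of the set with no Slc1a3 UMI, a set chosen after the values were seen, Dcc stood at 7979 and 7125 CPM and Tshz2 at 1269 and 839 CPM.

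Those with 1 Isl1 UMI and no Ebf1 numbered 56 in the Gmnc-/- and 25 in the wild-type library, and held RNA of progenitors and glia, at median depths of 3908 and 7199 UMIs, beside 3786 and 2878.5 UMIs in those with 2 or more Isl1 UMIs. Slc1a3, a glutamate transporter of radial glia and astrocytes, stood at 1075 CPM in Gmnc-/- and 1488 CPM in wild-type cells of this kind, beside 663 and 717 CPM in all other kept cells. It was detected in 23 of the 56 and 9 of the 25 cells. Fabp7, a fatty acid binding protein of radial glia, stood at 1811 and 7544 CPM in them, beside 1602 and 4003 CPM in other kept cells, and the matrix glycoprotein Tnc at 686 and 667 CPM, beside 379 and 272 CPM. Zfp503 gave 6 and 4 UMIs. Of the 7 progenitor and glia genes measured on both sides of the Ebf1 split, all 7 were at least 2-fold lower with Ebf1 in both libraries, and the list of 12 summed to 894 CPM with and 3338 CPM without Ebf1 in Gmnc-/- members and to 748 and 6748 CPM in wild-type members. In members with 2 or more Isl1 UMIs alone the number of genes lower with Ebf1 was 42, against 146, and the number higher was 76, against 97. Leaving out members with 10 or more UMIs of the progenitor and glia and the immune, vascular and blood lists together gave 34 lower and 85 higher genes. Those progenitor and glia genes are among the genes lower with Ebf1, so that fall was partly set by the choice of cells. How many genes reached 50 CPM also differs between these cell sets and is not given. The counts are therefore not shares of the same 4128 genes.

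**Figure D3:**
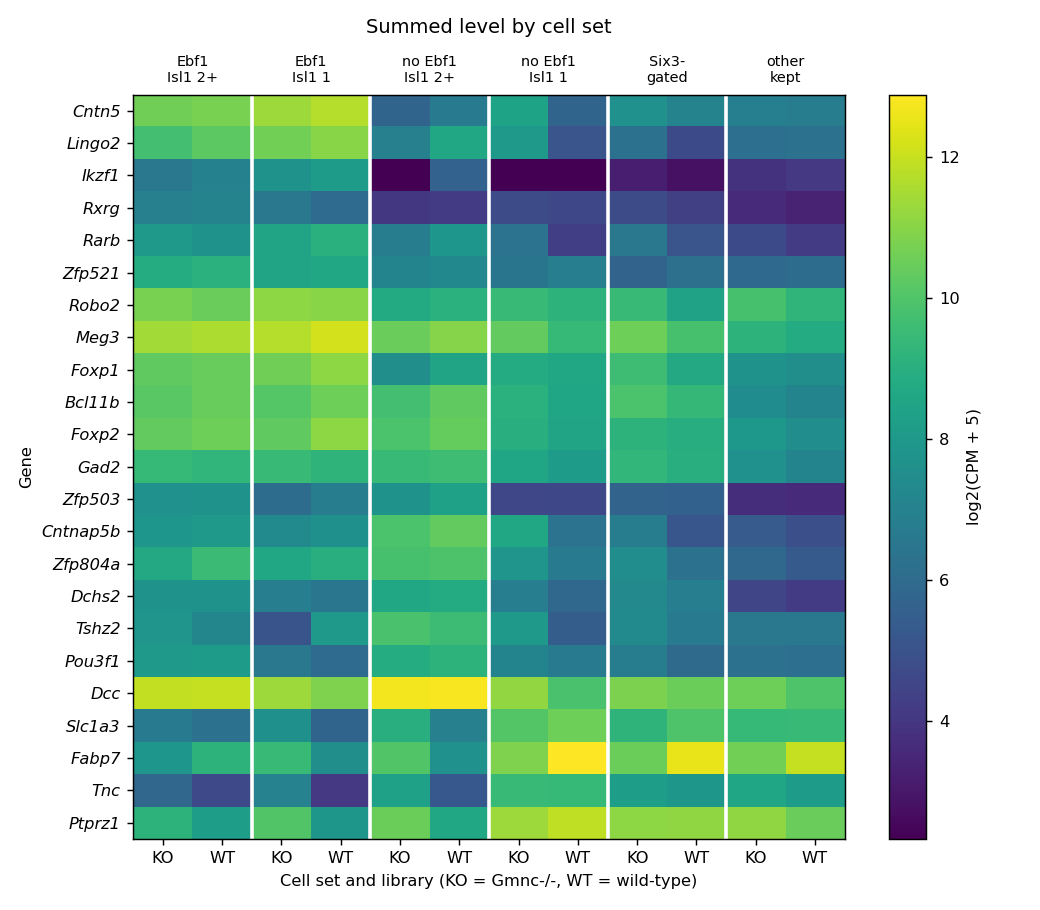
Summed level of 23 genes, as log2(CPM + 5), in members by Ebf1 and by Isl1 UMIs (Isl1 2+ is 2 or more), in Six3-gated cells and in other kept cells, with the Gmnc-/- column (KO) left of the wild-type column (WT) in each set. Cntn5, Lingo2, Ikzf1 and Foxp1 are brightest with Ebf1, Cntnap5b, Tshz2 and Dcc without Ebf1 at 2 or more Isl1 UMIs, and Slc1a3, Tnc and Ptprz1 without Ebf1 at 1 Isl1 UMI.

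Markers of mature direct pathway neurons were scarce in all members. Drd1 gave 2 UMIs in 2 Gmnc-/- members and 8 UMIs in 3 wild-type members, all of them cells with Ebf1. Tac1, which encodes substance P, gave 12, 4, 3, 1 and 1 UMIs in 5 Gmnc-/- members and 38, 34, 22, 1, 1 and 1 UMIs in 6 wild-type members, and 4 of the 5 and all 6 had Ebf1. Pdyn gave 3 UMIs in Gmnc-/- and 5 UMIs in wild-type members, and the muscarinic receptor gene Chrm4 gave 0 in both, a count that leaves room for a low level. On the indirect side Drd2 gave 6 UMIs in 4 Gmnc-/- and 3 UMIs in 3 wild-type members. Penk gave 3 UMIs in 1 Gmnc-/- and 5 UMIs in 5 wild-type members. No member of either library had both Drd1 and Drd2. With Drd1 in 2 and Drd2 in 4 of 258 Gmnc-/- members, and 3 and 3 of 134 wild-type members, this cannot show that they exclude each other. Six3 was found in 25 Gmnc-/- and 16 wild-type members, of which 9 and 6 also had Ebf1. After thinning, Drd2 was found in 1 of 221 Gmnc-/- members (0.452%, 0.0115 to 2.50) and 2 of 109 wild-type members (1.83%, 0.223 to 6.47). In Six3-gated cells the shares were 6.53% (4.66 to 8.85) and 4.17% (2.10 to 7.33), so the wild-type intervals overlap.

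Set beside all other kept cells, members had high levels of several genes known from the striatum. Of 4203 genes at 50 CPM or more, 128 (3.05%) were at least 2-fold higher in members of both libraries and 102 (2.43%) at least 2-fold lower. Ebf1 led them, at 1856 CPM in Gmnc-/- members and 52.8 CPM in other Gmnc-/- cells, and at 2465 and 67.7 CPM in the wild-type library. Zfp503 stood at 133 against 7.99 CPM in the Gmnc-/- library and 167 against 7.28 CPM in the wild-type library. The mu opioid receptor gene Oprm1, which marks striosomes in the mouse striatum, stood at 70.6 against 5.64 CPM in the Gmnc-/- and 60.3 against 4.06 CPM in the wild-type library. The striosome list as a whole was not raised. Of its 4 measured genes 1 was higher and 1 lower in both libraries, with median log2 ratios of -0.02 and -0.07. Of 6 striatal signalling genes 1 was higher and 1 lower in both. Rarb, Cntnap5b, Zfp804a, Dchs2, Sorcs3, Col25a1, Vstm2a, Plcxd3 and Rph3a were among the 15 highest. Of 10 measured striatal identity regulators 5 were higher in both libraries and none was lower. Against Six3-gated cells 3 of 11 were higher and 1 lower in both. The median log2 ratios against those cells were -0.08 in the Gmnc-/- and 0.37 in the wild-type library. The GABA-synthesizing enzyme Gad2 stood at 609 CPM in Gmnc-/- and 539 CPM in wild-type members, against 200 and 131 CPM in other kept cells, and close to 628 and 491 CPM in Six3-gated cells. Marker lists of other neurons gave mixed levels. All 6 cholinergic genes, Chat and Lhx8 among them, gave 0 UMIs in both libraries, Sst gave 2 and 1 UMIs, and the amygdala gene Crh gave 0 in both. The 6 cholinergic genes summed to only 0.77 CPM in other Gmnc-/- and 0.94 CPM in other wild-type kept cells. Their 0 UMIs in members leave room for such a level. The sensory neuron factors Pou4f1 and Tlx3 gave 0 UMIs in both libraries. The 5 sensory neuron genes found summed to 198 CPM in Gmnc-/- and 161 CPM in wild-type members, against 216 and 203 CPM in other kept cells. The 14 interneuron genes summed to 893 and 870 CPM in members, against 1142 and 855 CPM. The interneuron and excitatory neuron lists hold Lhx6 and Neurod6, which the rule kept at 0, so their lower or higher sums in members say nothing about those cell types. The 6 amygdala and intercalated neuron genes summed to 1093 CPM in Gmnc-/- and 1343 CPM in wild-type members, against 477 and 387 CPM in other kept cells, and 1 of the 3 genes at 50 CPM or more was at least 2-fold higher in both libraries. Most of that sum was Foxp2, a forkhead factor of striatal and intercalated amygdala neurons, which stood at 982 CPM in Gmnc-/- and 1198 CPM in wild-type members, against 246 and 177 CPM in other kept cells. In Six3-gated cells Foxp2 stood at 564 CPM in the Gmnc-/- and 475 CPM in the wild-type library.

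Against the 636 Gmnc-/- and 296 wild-type Six3-gated cells, 62 of 4043 genes (1.53%) were at least 2-fold higher in members of both libraries and 29 (0.717%) at least 2-fold lower. Higher were Ebf1, Col25a1, Lingo2, Ikzf1, Rph3a, Cntn5, Cntnap5b, Zfp521, Sorcs3 and Myo16. Col25a1, a membrane collagen, stood at 104 CPM in Gmnc-/- members and 6.72 CPM in Gmnc-/- Six3-gated cells, and at 172 and 2.46 CPM in the wild-type library. Lower were the receptor phosphatase gene Ptprm, at 165 against 1095 CPM in the Gmnc-/- library and 174 against 759 CPM in the wild-type library, the kainate receptor gene Grik3, at 49.2 against 185 CPM and 37.3 against 159 CPM, and the guidance ligand Slit3, at 69.8 against 424 CPM and 35.9 against 364 CPM. Dach2, Tmem108, Sox2, Chrm2 and Zfp536 were also lower in both. Six3 was part of the gate of the other cells and is no result. Ttr, the leading choroid plexus gene, was at 378 CPM in Gmnc-/- and 10954 CPM in wild-type Six3-gated cells, and at 3.97 and 11.5 CPM in members, so that gate also held choroid RNA.

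A total of 4468 genes reached 50 CPM in at least 1 library, and 49 of them (1.1%) were at least 2-fold higher in Gmnc-/- members and 51 (1.14%) at least 2-fold lower, with 5 CPM added to both values. In the other kept cells 0.349% were higher and 1.44% lower by the same rule. The median log2 ratio over the 4468 genes was 0.06 in members. Of the direct pathway list, 6 genes had 10 or more UMIs apart from Isl1, all 6 with a log2 ratio below 0 and a median of -0.34, beside a median of 0.05 over all 11348 genes so measured. The same 6 genes had a median of 0.03 in other kept cells. The spread among them was wide: Ebf1 stood at 1856 CPM in Gmnc-/- and 2465 CPM in wild-type members (ratio 0.753, 0.707 to 0.802), Zfp521 at 256 and 306 CPM (ratio 0.838, 0.702 to 1.001), and the mitochondrial serine carrier Sfxn1 at 65.8 and 67.5 CPM (ratio 0.975, 0.674 to 1.43). The median was 0.79 in male-pattern cells alone, of which there were 65 Gmnc-/- and 17 wild-type members. For the indirect pathway list the median over 4 measured genes was -0.20, with 3 below 0, and 0.21 in other kept cells.

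Tac1 was the member of these lists furthest apart, at 16.7 CPM in Gmnc-/- members and 139 CPM in wild-type members (ratio 0.120, 0.0708 to 0.193). Nearly all of the wild-type sum came from 3 cells, and the numbers of cells with Tac1 were 5 of 258 and 6 of 134. After thinning, Tac1 was found in 3 of 221 Gmnc-/- and 5 of 109 wild-type members, a ratio of 0.296 (0.0460 to 1.52). The counting interval of the summed ratio does not hold the spread between cells.

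Of 13 striatal identity regulators outside the rule, 9 had a log2 ratio below 0, with a median of -0.20, and none was past 2-fold. The factor Meis2, which is made in striatal neurons, stood at 3133 CPM in Gmnc-/- and 2831 CPM in wild-type members, and Zfp503 at 133 and 167 CPM. Of 15 striatal signalling genes 12 were below 0, with a median of -0.21 and none past 2-fold, and the phosphodiesterase gene Pde10a stood at 224 CPM in Gmnc-/- and 292 CPM in wild-type members. Of 5 matrix genes all 5 were below 0, with a median of -0.56, and of 7 striosome genes 4 were above 0, with a median of 0.07. In other kept cells the medians of these 4 lists were 0.41, 0.25, 0.004 and 0.23 in the same order. The median over all 11348 genes so measured was 0.05 in members and 0.11 in other kept cells. The striosome gene Sema5b was past 2-fold, at 113 CPM in Gmnc-/- and 48.8 CPM in wild-type members, with a log2 ratio of 1.14 in members and 0.66 in other kept cells. Of the 5 GABA synthesis and release genes 4 were above 0, with Gad1 at 181 CPM in Gmnc-/- and 124 CPM in wild-type members. The median log2 ratio was -0.03 for axon guidance, -0.11 for glutamate and GABA receptors, 0.04 for young and 0.19 for maturing neuron genes, -0.06 for retinoic acid handling and 0.23 for p53 and apoptosis genes. Only Tac1 and Sema5b of these lists, and the stress gene Ier2 of the immediate early list, were past 2-fold at 50 CPM or more. Of the Gmnc and Trp73 programme 3 genes were measured, all below 0 with a median of -0.48 in members and -0.56 in other kept cells. Trp73 gave 0 UMIs in Gmnc-/- and 3 UMIs in wild-type members.

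Among the genes past 2-fold were haemoglobin genes, mitochondrial genes and genes that differed alike in the other kept cells. The 4 haemoglobin genes were the highest, with Hbb-bs at 7137 CPM in Gmnc-/- and 154 CPM in wild-type members. Over 5% haemoglobin UMIs were found in 6 of 258 Gmnc-/- and 0 of 134 wild-type members. Among all kept cells 911 of 26178 Gmnc-/- and 392 of 10938 wild-type cells had as much. All 12 mitochondrial genes among those lower were also below 0 in the other kept cells, 9 of them past 2-fold there. Of the other 45 genes higher in Gmnc-/- members 8 were past 2-fold in the same direction in the other kept cells, and of the other 39 lower ones 12 were. Cdk8, a Mediator kinase, stood at 150 CPM in 122 Gmnc-/- members and 504 CPM in 111 wild-type members, with a log2 ratio of -1.72 in members and -1.56 in other kept cells. Filip1l stood at 103 CPM in Gmnc-/- and 37.3 CPM in wild-type members, with a log2 ratio of 1.35 in members and 1.60 in other kept cells. Xist, which female cells make, stood at 394 CPM in Gmnc-/- and 1039 CPM in wild-type members, where 98 members of each library had the female pattern and 65 and 17 the male one.

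**Figure D4:**
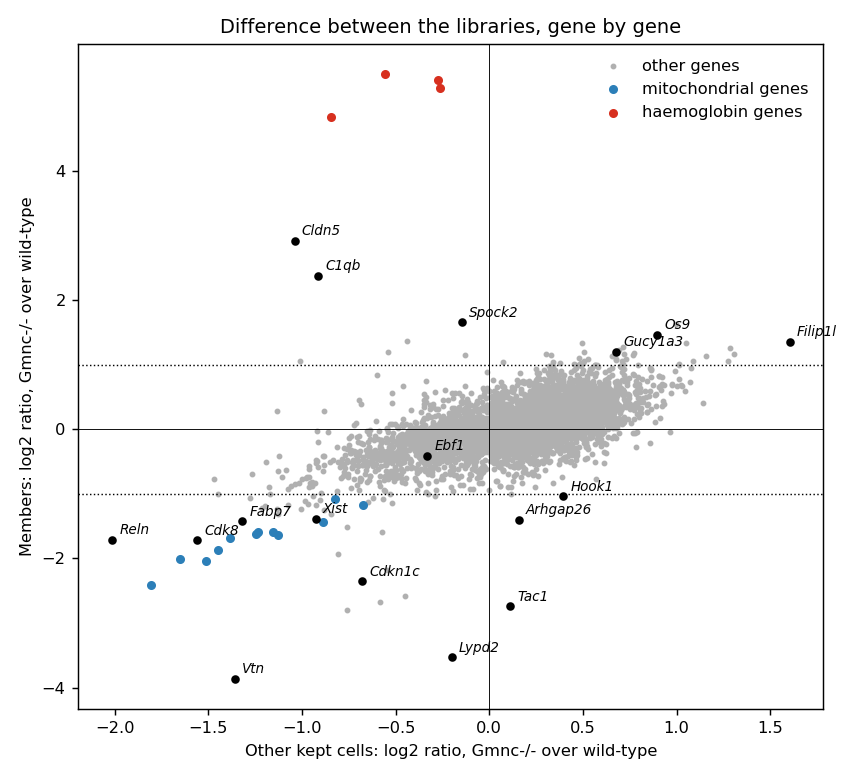
Log2 ratio of Gmnc-/- over wild-type in members (vertical axis) against the same ratio in other kept cells (horizontal axis), for 4468 genes at 50 CPM or more in members. Dotted lines mark 2-fold in members; haemoglobin genes (red) are high in members alone, mitochondrial genes (blue) are low in both, and Tac1, Arhgap26 and Hook1 are low in members while near or above 0 in the other cells.

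Single cells set several of the furthest ratios. The endothelial gene Cldn5 gave 71, 24 and 1 UMIs in 3 Gmnc-/- members and 2, 1 and 1 UMIs in 3 wild-type members. Lypd2 and Nov came from 1 wild-type cell each, with 43 and 36 UMIs. The pericyte and serum gene Vtn gave 1 UMI in 1 Gmnc-/- member and 49, 5 and 1 UMIs in 3 wild-type members. The cell cycle inhibitor Cdkn1c had 95 of its 110 wild-type UMIs in 1 cell, and without each library's highest cell its log2 ratio was -0.08 instead of -2.35. The collagen gene Col1a1 came from 1 Gmnc-/- and 3 wild-type members. The microglial gene C1qb was found in 10 Gmnc-/- and 4 wild-type members, with 29 of its 64 Gmnc-/- UMIs in 1 cell, and Ctsd and Spock2 had 62 of 149 and 61 of 150 in 1 cell each. Without the highest cell of each library, 46 of the 49 higher and 38 of the 51 lower genes were still past 2-fold. The whole list of 13 immune, vascular and blood genes summed to 14516 CPM in Gmnc-/- and 497 CPM in wild-type members, beside 16500 and 23438 CPM in other kept cells, with Csf1r at 0 in wild-type members. Of its 13 measured genes 11 were above 0 on the log2 scale, and 13 Gmnc-/- and 5 wild-type members had 10 or more of its UMIs. The 12 progenitor and glia genes summed to 2198 and 3878 CPM in members and 3456 and 6381 CPM in other kept cells, with 7 of 12 below 0 and none at 0 UMIs. Their part in the ratios was not tested beyond leaving out the cells that held them, which picks cells by the counts of these same genes.

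**Figure D5:**
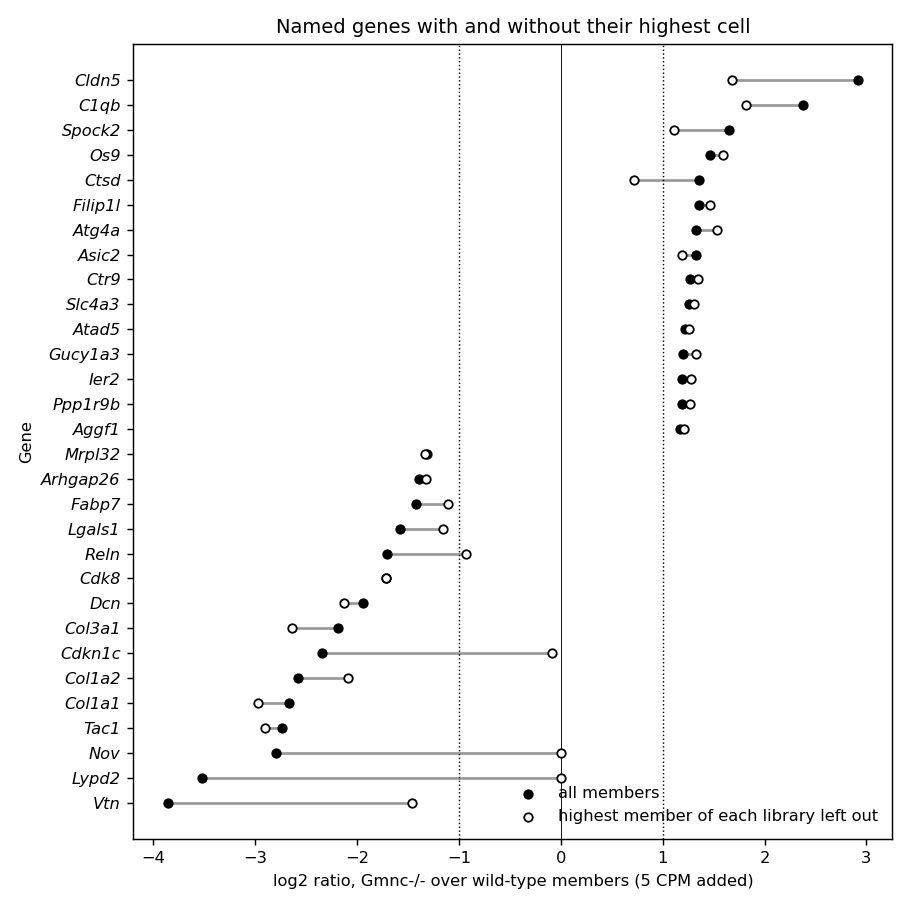
Log2 ratio of Gmnc-/- over wild-type members (5 CPM added) for the 15 highest and 15 lowest genes by the naming rule, with all members (filled) and with the highest cell of each library left out (open). Lypd2, Nov and Cdkn1c move to about 0, while Os9, Filip1l, Ctr9, Cdk8, Arhgap26 and Mrpl32 move little.

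Some genes past 2-fold were spread over many cells. The endoplasmic reticulum lectin gene Os9 had 126 UMIs in 88 Gmnc-/- members and 23 UMIs in 19 wild-type members, or 99.96 and 33.0 CPM (ratio 3.03, 1.93 to 4.95). The Paf1 complex gene Ctr9 had 144 UMIs in 96 Gmnc-/- members and 31 UMIs in 24 wild-type members, or 114 and 44.5 CPM. Both were also above 0 in the other kept cells, with log2 ratios of 0.90 and 0.71. Arhgap26 and Hook1, a linker of cargo to microtubules, went the other way. Arhgap26 had 49 UMIs in 35 Gmnc-/- members and 77 UMIs in 25 wild-type members, or 38.9 and 111 CPM (ratio 0.351, 0.241 to 0.509), with a log2 ratio of -1.40 in members and 0.16 in other kept cells. Hook1 had 32 UMIs in 25 Gmnc-/- members and 40 UMIs in 32 wild-type members, or 25.4 and 57.5 CPM (ratio 0.442, 0.269 to 0.721), with a log2 ratio of -1.04 in members and 0.39 in other kept cells. Among 17 alternative settings Arhgap26 was past 2-fold in 15 and nearest to 0 at -0.50, with members thinned to 2000 UMIs, and Hook1 was past 2-fold in 13 and nearest to 0 at -0.18, in male-pattern cells. The 17 include settings of the CPM minimum and of a smaller added value, which could not bring a ratio nearer to 0.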

How the data were processed

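Single-cell counts came from 2 droplet libraries, 1 Gmnc-/- and 1 wild-type. The deposited files hold UMI counts per gene and barcode for 28001 features. Per the submitters' processing notes Cell Ranger 7.1.0 and mm10 were used, with 3' chemistry version 3.1 per the labels' protocols; further steps are not stated in the labels or files. Each deposited barcode had 500 UMIs or more. Kept cells held 154383820 UMIs in the Gmnc-/- library (median 4927 per cell) and 85086833 UMIs in the wild-type library (median 6160).

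The members, the gene lists and the comparisons were chosen with earlier results of these data known. UMIs were summed per library and cell set and given as CPM. Log2 ratios had 5 CPM added, which understates the ratio of low genes. Sums carry exact Poisson intervals, shares exact Clopper-Pearson intervals and ratios exact conditional intervals at 95%. A list gene counted as measured with 10 or more UMIs in the 2 libraries together. Thinning drew 2000 or 4000 UMIs from each cell without replacement and left out shallower cells.

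The naming rule took, among genes at 50 CPM or more, leaving out haemoglobin, mitochondrial, ribosomal, Xist, Y-linked, predicted and rule genes, the 15 highest and 15 lowest ratios of Gmnc-/- over wild-type members, the 10 highest and 10 lowest differences from the other kept cells, the 15 highest of members over other kept cells, and the 10 highest and 10 lowest over Six3-gated cells, with the ratio of the library nearer to 0 used in the last 2 comparisons. Genes of the 23 lists were named with their lists. Haemoglobin genes, mitochondrial genes, Xist, Tshz2, Pou3f1 and the genes of the Ebf1 split were named outside it, after their values were seen. Female-pattern cells had Xist and no Y-linked UMIs, male-pattern cells the reverse. Doublets were kept, and left out as an alternative: Scrublet in scanpy 1.11.5 marked 16.3% of Gmnc-/- and 4.48% of wild-type members. Among all kept cells it marked 19.1% of Gmnc-/- and 4.21% of wild-type cells. Coordinates came from the GENCODE annotation of mm10. SciPy 1.17.1 and NumPy 2.4.6 were used, and the calculation was tested on simulated data.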

Additional observations from a re-analysis of the deposited data

Results flagged for a closer look

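The feature tables list 3 sequences without an Ensembl identifier, which the comparisons above did not use, and 2 of them gave UMIs in members. The feature named Stop-Ai9 stood at 192 CPM in Gmnc-/- members (242 UMIs in 107 cells) and at 562 CPM in wild-type members (391 UMIs in 94 cells), close to 194 CPM in other Gmnc-/- and 569 CPM in other wild-type cells. The feature named Tomato stood at 14.3 CPM in Gmnc-/- members (18 UMIs) and 17.2 CPM in wild-type members (12 UMIs), with 13.97 and 31.9 CPM in other kept cells. The labels describe no reporter allele, and where these UMIs came from was not tested.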

How the results depend on the processing

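No paired analysis was possible because each genotype had 1 library. The member share ratio of 0.804 was 0.631 in female-pattern cells and 1.21 after thinning to 4000 UMIs, and lay between 0.730 and 0.982 in the other 10 settings. The direct pathway median of -0.34 was -0.90 in female-pattern and 0.79 in male-pattern cells, and between -0.73 and -0.23 in the others. For the indirect pathway the median stayed in all settings between the medians of its genes' lower and upper counting limits. That range is wide and is no interval of the median itself, which was 0.31 with 2 or more Isl1 UMIs. The 49 genes higher in Gmnc-/- members became 133 in female-pattern and 580 in male-pattern cells, 138 with 2 or more Isl1 UMIs, 74 by the mean over cells, 158 with members thinned to 2000 UMIs, 19 at 100 CPM or more, 309 with no minimum of CPM, 151 in members with Ebf1 and 142 in those without. The 51 lower genes became 79 without doublets, 103 in female-pattern and 502 in male-pattern cells, 116 with 2 or more Isl1 UMIs, 186 when thinned, 32 at 100 CPM or more, 220 with no minimum, 133 in members with Ebf1 and 98 in those without. The female-pattern, male-pattern, Isl1, doublet, thinned and Ebf1 settings use fewer cells or UMIs, and the CPM minimum changes how many genes are counted. How many genes reach 50 CPM changes with the cells used as well, and these totals are not given. The counts here and those of the Ebf1 split below therefore cannot be read as shares. The cause of the shifts was not tested. The ratio of the Ebf1 share, 0.956, lay between 0.895 and 1.23 in every setting run for it. The 97 genes higher with Ebf1 were 165 in male-pattern cells, and the 146 lower were 42 with 2 or more Isl1 UMIs and 34 without members holding 10 or more UMIs of the immune, vascular and blood and the progenitor and glia lists (43 Gmnc-/- and 18 wild-type members). That last setting picks cells by list genes of which some are themselves among the 146. It, the Ebf1 settings and the highest-cell setting were added after seeing the data, as was every alternative of the Ebf1 split.

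Of 141 single genes followed over 2397 gene and setting pairs, 25 pairs turned the sign of a gene past 2-fold. Without members holding RNA of other cells the log2 ratio was 0.67 for Cdkn1c, -0.18 for Cldn5, 0.32 for Col1a2, 0.58 for Dcn, -0.014 for Hba-a1, -0.055 for Hba-a2, -0.37 for Hbb-bt, 0.30 for Lgals1 and 0.32 for Vtn. The cells were left out by the counts of lists that hold haemoglobin and vascular genes. For genes on those lists the change was set by that choice and is no test. In members without Ebf1 it was 0.64 for Cdkn1c, -0.26 for Cldn5, 0.38 for Lypd2, 1.13 for Nov, 1.88 for Reln, -1.39 for Sepp1 and 0.38 for Tac1. In male-pattern cells it was 0.70 for Cdkn1c, -0.28 for Gucy1a3, 1.22 for Reln and -0.95 for Sepp1. Without doublets it was -0.66 for Cldn5 and -0.22 for Hbb-bt, in female-pattern cells -0.36 for Hbb-bt, with 2 or more Isl1 UMIs 0.55 for Fabp7, and with 4 or more UMIs of Foxp1 and Bcl11b 0.27 for Vtn. Cdk8 and Os9 were past 2-fold in all 17 settings, Arhgap26 in 15, Filip1l and Ctr9 in 14, Hook1 in 13 and Sema5b and Ier2 in 12. The settings of the CPM minimum leave the ratio of a gene as it was. Adding 1 CPM in place of 5 can only move a ratio away from 0. A gene past 2-fold therefore passed these settings in advance, and they are no check of it. The ratio intervals of Drd2, Penk and Pdyn include 1, so no difference was detectable at these counts, and the Drd1 ratio of 0.138 (0.0143 to 0.692) rests on 5 cells.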
